A study of Mus musculus with 2 samples.

Results

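Amino acid transporters were examined on a pair of gene expression arrays, 1 of Eed knockout (Eed KO) mouse embryonic stem (ES) cells and 1 of control ES cells. They were 36 genes of 7 solute carrier families (Slc1, Slc3, Slc7, Slc36, Slc38, Slc43 and amino acid carriers of Slc6). A gene was taken when a probe set carried its symbol, and no other, in the platform annotation. The 36 genes, of 18193 on the array, had 77 of its 34945 probe sets with 1 symbol. A probe set is a handful of short oligonucleotides for 1 transcript, read out together as 1 signal. The signals are linear intensities that MAS5 computes for each array by itself, per the submitters' processing notes.

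Eed belongs to Polycomb repressive complex 2 (PRC2), the enzyme complex that places methyl groups on lysine 27 of histone H3 and keeps developmental genes silent. The knockout is described as constitutive, and the other array is described as the control of the knockout. The comparison asks which transcripts differ between cells labelled as Eed KO and their control, and in the submitters' study it stood next to cells without the PRC1 proteins Ring1A or Ring1B (not analysed here). The labels give neither the way the gene was disrupted, nor the parent line, nor the number of clones, nor whether feeder cells were used. With 1 array per group no test between Eed KO and control was possible. Every difference below is one between these 2 arrays, whose number limits the precision.

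Amino acids cross membranes through carriers that differ in substrate and driving force. Slc1 proteins move glutamate, aspartate or small neutral amino acids with sodium, and Slc38 proteins move glutamine and other small neutral amino acids with sodium. Slc7 proteins are either cationic amino acid transporters or light chains that work in pairs with an Slc3 heavy chain. Some Slc36 proteins use a proton gradient. Several of these genes are known targets of ATF4, the transcription factor of the integrated stress response that is translated when amino acids run short.

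Promoter sequences are shown for 4 members, because they hold, or lack, the short motif through which C/EBP-ATF dimers bind such genes. RefSeq (build GRCm38.p6) gave 39 promoters, of 250 bases before to 50 after a start site, for 27 of the 36 members. The motif TGATGNAA was searched on both strands (TTNCATCA on the other) and is in capitals. The Slc1a4 promoter (chr11:20332664-20332963, minus strand) and the Slc7a11 promoter (chr3:50443564-50443863, minus strand) hold it. The first of the Slc7a7 promoters (chr14:54417895-54418194, minus strand) holds it too, and that of Slc1a1 (chr19:28834885-28835184, plus strand), the member with the largest ratio, does not.
Slc1a4: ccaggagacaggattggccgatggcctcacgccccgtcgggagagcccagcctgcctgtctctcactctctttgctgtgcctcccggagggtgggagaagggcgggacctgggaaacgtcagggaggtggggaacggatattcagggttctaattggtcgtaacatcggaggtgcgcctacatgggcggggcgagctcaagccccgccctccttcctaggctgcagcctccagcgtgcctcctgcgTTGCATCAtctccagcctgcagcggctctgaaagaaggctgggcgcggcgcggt
Slc7a11: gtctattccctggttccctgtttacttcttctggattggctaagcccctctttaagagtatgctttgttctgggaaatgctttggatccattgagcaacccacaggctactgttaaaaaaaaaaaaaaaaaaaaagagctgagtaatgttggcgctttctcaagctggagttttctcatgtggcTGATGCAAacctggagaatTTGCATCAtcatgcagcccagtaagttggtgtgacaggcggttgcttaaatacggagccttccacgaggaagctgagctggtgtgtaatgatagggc
Slc7a7: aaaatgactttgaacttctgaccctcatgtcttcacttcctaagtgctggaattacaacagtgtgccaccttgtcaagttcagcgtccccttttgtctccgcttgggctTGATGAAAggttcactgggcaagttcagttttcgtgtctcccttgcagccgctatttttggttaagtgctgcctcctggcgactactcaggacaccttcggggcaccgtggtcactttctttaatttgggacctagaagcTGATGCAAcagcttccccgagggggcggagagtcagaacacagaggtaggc
Slc1a1: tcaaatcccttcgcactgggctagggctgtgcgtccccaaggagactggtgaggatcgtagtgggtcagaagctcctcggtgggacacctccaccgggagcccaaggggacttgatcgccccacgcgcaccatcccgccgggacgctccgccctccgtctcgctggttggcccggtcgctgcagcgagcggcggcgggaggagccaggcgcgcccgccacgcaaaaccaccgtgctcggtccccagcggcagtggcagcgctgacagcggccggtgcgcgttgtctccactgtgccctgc
The copy in Slc1a4 began 4 bases before the start site, on the opposite strand. The copies in Slc7a11 began 66 and 47 bases before it, on opposite strands, and those in Slc7a7 141 bases and 1 base before it. The motif was found in these 3 of 27 members, of which Slc1a4 was 1 of the 11 members with a promoter that differed by 2-fold on the arrays. Among all 32851 promoters 1304 (3.97%) held it, or 1219 of 27025 genes (4.51%). The antioxidant response element TGACNNNGC, searched on both strands, was in 6 of the 27 members, and in 3781 of all 27025 genes (14.0%). Among the members that differed by 2-fold, 4 of the 11 held it: Slc6a9, Slc7a1, Slc36a1 and Slc38a2. A match is a description of the letters, and no match says only that these letters are not in this window.

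The signals of both arrays were on 1 scale when deposited, with the same mean after 2% of the probe sets were trimmed at each end. The median signal was 108.1 in Eed KO and 87.4 in control. Before ratios were taken, signals were raised to a floor of 61.3, the 40th percentile over both arrays without control probe sets. A gene was represented by its brightest probe set, counted as measured when either array exceeded the floor, and was called higher or lower at a floored ratio of at least 2-fold. The main Eed probe set read 11455.8 in Eed KO and 10101.3 in control, a log2 ratio of 0.18, and the other one was under the floor at 56.7 in Eed KO and 49.0 in control. The transcript was thus not lower on the array labelled Eed KO. The labels do not place the disruption within the gene, and probes that lie outside it check nothing, so the knockout could not be checked from these data and the groups below are named by their labels. Of 26 measured fibroblast markers 19 were called higher and 0 lower, with summed signals of 74775.2 in Eed KO and 32522.8 in control, while Lum and Fap were under the floor on both arrays. Of 16 pluripotency markers 2 were higher and 1 lower (sums 150569 in Eed KO and 140606 in control).

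In the Eed KO array 10 of the 33 measured amino acid transporters (30.3%) were at least 2-fold higher than in control, against 10.8% of all 13794 measured genes. At least 2-fold lower were 2 of the 33 (6.06%), against 3.27% of all genes. The 10 higher members include carriers of glutamate (Slc1a1), small neutral amino acids (Slc1a4, Slc38a5), cationic amino acids (Slc7a1, Slc7a2) and glycine (Slc6a9). Others move amino acids out of lysosomes or with protons (Slc38a7, Slc36a1) or carry proline and tryptophan (Slc36a4), and Slc38a6 is the last. The 2 lower members were the glutamate carrier Slc1a3 and the system A carrier Slc38a2. The other 21 were not called, and Slc1a2, Slc1a6 and Slc7a10 were under the floor on both arrays. For Slc3a1, Slc7a8 and Slc7a11, among the 21, the ratio is a lower bound, since control was under the floor. Fewer cells of a type and less RNA per cell cannot be told apart in such bulk samples. The part of the higher fibroblast markers in these differences was not tested.

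The median log2 ratio of the measured members was 0.56, against 0.12 over all measured genes. For 24 members the ratio was above 1 and for 9 below. Of these, 6 were above the floor in Eed KO only (Slc1a1, Slc3a1, Slc7a8, Slc7a11, Slc38a5 and Slc36a4), so the choice of measured genes fixed their direction. No member, 0 of 36, was above the floor in control only. Over all 13794 measured genes the same imbalance was seen, with 1497 above the floor in Eed KO only and 482 in control only. Over the 27 members above the floor on both arrays 7 were higher (25.9%, against 9.89% of 11815 genes) and 2 lower (7.41%, against 3.39%), with a median of 0.54 against 0.09. Single probe sets were counted too, although those of 1 gene are repeats and no independent support. Of 64 measured member probe sets 23 were higher (35.9%, against 9.8% of 25167 probe sets) and 6 lower (9.38%, against 3.47%). Slc38a9, itself not called, gave 6 of the 23. Of the 64, 46 were above the floor on both arrays. For the rest the choice of measured probe sets fixed the direction. The other 13 of the 77 were under the floor on both arrays.

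**Figure D1:**
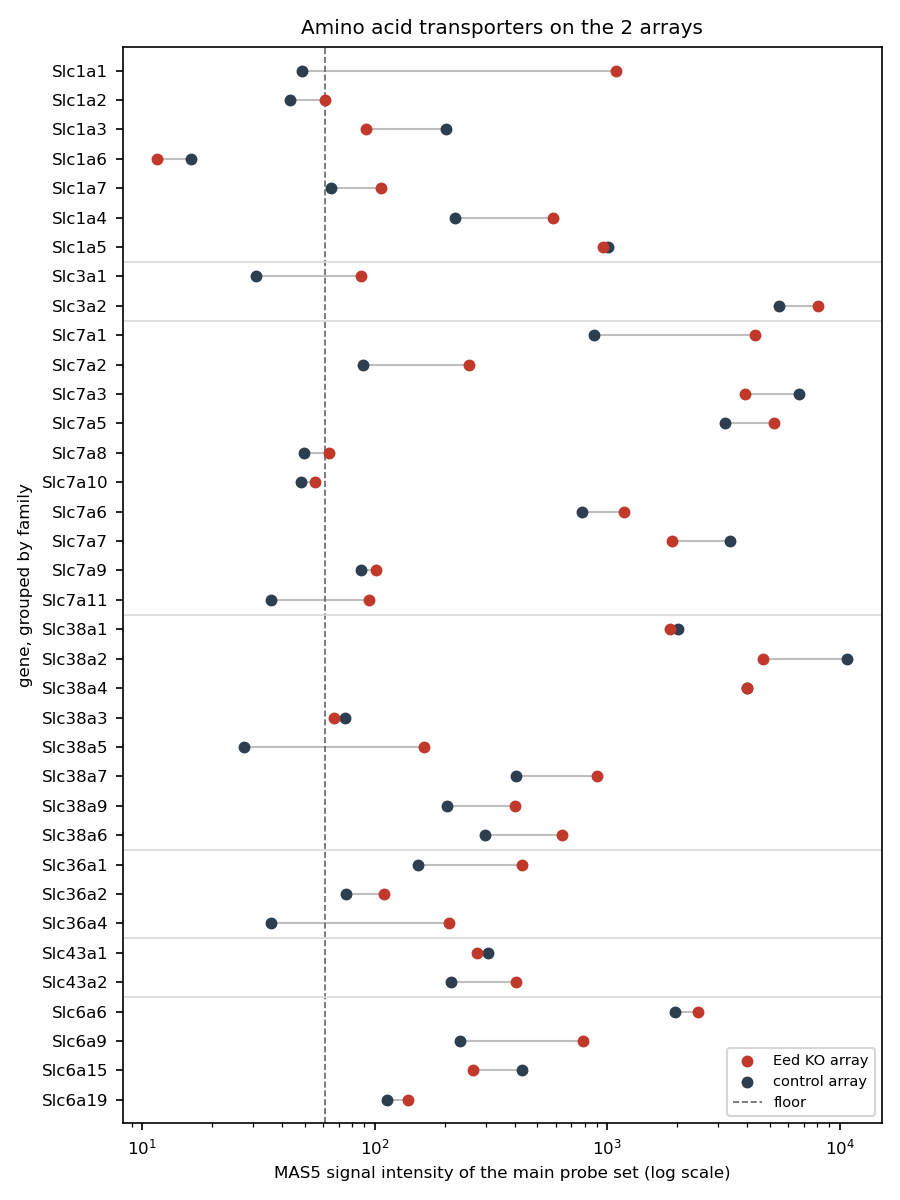
Signal intensity of the main probe set of each of the 36 amino acid transporters (rows, grouped by family) on a log axis, with 1 point for the Eed KO array and 1 for the control array, and a dashed line at the floor of 61.3. Slc1a1 has the widest gap, at 1089.7 in Eed KO and 48.7 in control, and Slc1a2, Slc1a6 and Slc7a10 have both points under the floor.

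Among the glutamate and aspartate carriers of the Slc1 family, the measured members went in different directions. Slc1a1 encodes EAAT3, a sodium-coupled glutamate carrier that also takes up cysteine. Its main probe set read 1089.7 in Eed KO and 48.7 in control, so that it was at least 17.8-fold higher in Eed KO. Its other probe sets gave the same direction, with 619.6 in Eed KO and 80.9 in control (log2 ratio 2.94) and with 483.2 in Eed KO and 61.3 in control (2.98). Over all alternatives the log2 ratio lay between 2.70 and 4.48.

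Slc1a3 encodes EAAT1 (GLAST), the glial glutamate carrier. It read 91.3 in Eed KO and 201.5 in control, 2.21-fold lower in Eed KO (log2 ratio -1.14). All 5 of its other measured probe sets were lower too, with floored log2 ratios of -1.48 to -0.32, of which all but 1 are bounds because Eed KO was under the floor. The call on these dim signals was lost in 3 of 10 alternatives. The log2 ratio was -0.26 with a floor at the 60th percentile (168.2), -0.83 with a pseudocount and -0.96 when its probe sets were averaged. Slc1a7, the glutamate carrier EAAT5 known from retina, read 106.1 in Eed KO and 64.9 in control (log2 ratio 0.71). Slc1a2, the glial carrier EAAT2 (GLT-1), had 5 probe sets, all under the floor, the brightest at 61.0 in Eed KO and 43.2 in control. Slc1a6, the cerebellar carrier EAAT4, read 11.6 in Eed KO and 16.2 in control.

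The neutral amino acid exchangers of the same family differed from each other in the same pair of arrays. Slc1a4 (ASCT1) exchanges alanine, serine and cysteine. It read 582.4 in Eed KO and 220.3 in control, 2.64-fold higher (log2 ratio 1.40). Its other probe sets gave log2 ratios of 2.69 (604.7 in Eed KO, 93.6 in control) and 1.83 (324.7 in Eed KO, 91.1 in control). All 3 probe sets thus passed 2-fold, and so did the gene in all 10 alternatives of scaling, floor and probe set (1.09 to 1.98). Slc1a5 (ASCT2), the glutamine exchanger, read 956.5 in Eed KO and 1006.7 in control (log2 ratio -0.07), and its dimmer probe set 192.9 in Eed KO and 143.5 in control (0.43). The sign of Slc1a5 thus depended on the probe set, with 0.18 as their mean.

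The heavy chains of Slc3 bring the Slc7 light chains to the cell surface. Slc3a2, the heavy chain 4F2hc (CD98), was bright on both arrays at 8072.8 in Eed KO and 5467.5 in control, a log2 ratio of 0.56 that lay between 0.25 and 0.69 over the alternatives. Slc3a1, the heavy chain rBAT of kidney and gut, read 87.3 in Eed KO and was under the floor in control at 31.0, at least 1.42-fold higher. Neither heavy chain was called, although for Slc3a1 the ratio is only a lower bound, and a floor at the 25th percentile (29.7) gave it a log2 ratio of 1.49.

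The cationic amino acid transporters of Slc7 work without a heavy chain and take up arginine, lysine and ornithine. Slc7a1 (CAT1), the broadly expressed carrier, read 4327.2 in Eed KO and 878.9 in control, 4.92-fold higher (log2 ratio 2.30). Its other probe sets read 4439.1 in Eed KO and 825.0 in control (2.43) and 301.9 in Eed KO and 77.1 in control (1.97). It was the only member with a mean signal over 1024 that was at least 2-fold higher. It kept its call in all 10 alternatives (1.99 to 2.39).

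Slc7a3 (CAT3), the cationic carrier known from brain, was bright as well and went the other way. It read 3894.0 in Eed KO and 6668.1 in control, a log2 ratio of -0.78 that reached -1.08, past 2-fold, once both arrays had equal medians. Slc7a2 (CAT2), known to be induced in activated macrophages, read 253.7 in Eed KO and 89.0 in control, 2.85-fold higher. Its 2 other measured probe sets were dim, at 72.0 in Eed KO and 22.7 in control and at 68.9 in Eed KO and 9.5 in control, with floored log2 ratios of 0.23 and 0.17. A further one was under the floor on both arrays. Slc7a2 was under 2-fold in 2 of 10 alternatives, down to a log2 ratio of 0.59.

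None of the 7 Slc7 light chains was called, of which 6 were measured. Slc7a5 (LAT1), which takes up leucine and other large neutral amino acids and feeds the mTORC1 pathway, read 5205.5 in Eed KO and 3192.9 in control (log2 ratio 0.71, 0.40 to 0.83 over the alternatives). Slc7a6 (y+LAT2), an exchanger of cationic for neutral amino acids, read 1184.2 in Eed KO and 774.2 in control (0.61), and 949.4 in Eed KO and 793.9 in control at its other probe set (0.26). Slc7a7 (y+LAT1), an exchanger of the same kind, was lower by a log2 ratio of -0.84, at 1888.6 in Eed KO and 3375.8 in control. Its other probe set gave -0.86, and it passed 2-fold with equal array medians or with poly-A spikes as the scale. Both y+LAT genes were thus well measured, with ratios on opposite sides of 1.

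The remaining light chains were dim. Slc7a11 (xCT), the cystine-glutamate exchanger, read 94.1 in Eed KO and was under the floor in control at 35.7, at least 1.54-fold higher. That lower floor of 29.7 gave it a log2 ratio of 1.40, past 2-fold. Slc7a9, the light chain of rBAT, read 100.9 in Eed KO and 87.6 in control (0.20, with the sign turned under 2 scalings). Slc7a8 (LAT2) read 63.8 in Eed KO and 49.8 in control, and Slc7a10 (Asc-1) 55.5 in Eed KO and 48.1 in control.

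**Figure D2:**
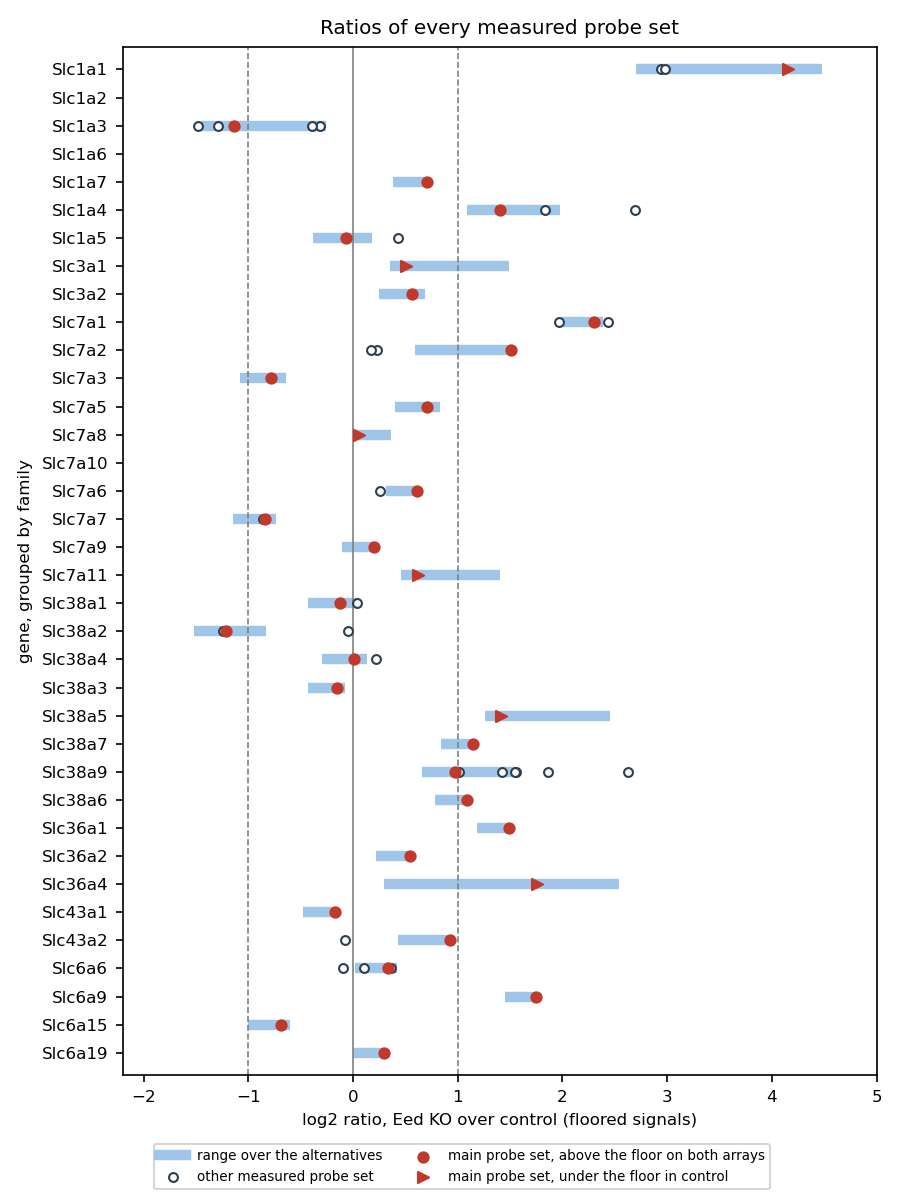
Log2 ratio of floored signals, Eed KO over control, of every measured probe set of the amino acid transporters. Filled symbols are main probe sets (a triangle where control is under the floor, so that the ratio is a lower bound), open circles other probe sets, blue bars the range over the 10 alternatives with a value per gene, and dashed lines 2-fold; the 3 probe sets of Slc1a1 and of Slc7a1 lie to the right of the 2-fold line, and Slc38a2 and Slc1a3 have main probe sets to the left of it.

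System A carriers of the Slc38 family take up small neutral amino acids with sodium. Slc38a2 (SNAT2), known to be induced by amino acid starvation, was the 1 member of this group that was called. It read 4664.0 in Eed KO and 10776.4 in control, 2.31-fold lower (log2 ratio -1.21). Its next probe set gave -1.24 (1692.1 in Eed KO, 3996.8 in control), and a dim one gave -0.05 (128.9 in Eed KO, 133.3 in control). As the mean over the 3 probe sets the log2 ratio was -0.83, under 2-fold. Slc38a1 (SNAT1) read 1851.0 in Eed KO and 2013.7 in control (-0.12), and Slc38a4 (SNAT4) 3987.6 in Eed KO and 3970.2 in control (0.01), both with the sign turned in at least 1 alternative. The genes Slc38a1, Slc38a2 and Slc38a4 are neighbours on chromosome 15 with 0 coding genes between them, and only Slc38a2 of the 3 was called.

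System N carriers move glutamine, histidine and asparagine in either direction. Slc38a5 (SNAT5) read 162.8 in Eed KO and was under the floor in control at 27.5, at least 2.66-fold higher. It was called in 9 alternatives and was under the floor on both arrays in the other, with the 60th percentile as floor. Slc38a3 (SNAT3) read 67.1 in Eed KO and 74.2 in control, close to the floor on both arrays.

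The lysosomal carriers Slc38a7 and Slc38a9 both had ratios near 2-fold at their main probe sets. Slc38a7 (SNAT7), which exports glutamine and asparagine from lysosomes, read 900.5 in Eed KO and 406.2 in control, 2.22-fold higher, and was under 2-fold in 2 of 10 alternatives. Slc38a9, the lysosomal arginine sensor of the mTORC1 pathway, read 400.0 in Eed KO and 204.2 in control, 1.96-fold higher and so just under the call. All 6 of its other probe sets were at least 2-fold higher, with log2 ratios of 1.01 to 2.63 (425.4 in Eed KO and 68.8 in control for the last). Of these, only the probe sets at 2.63 and 1.56 were above the floor on both arrays. The rest were under it in control, which fixed their direction and makes their ratios lower bounds. The mean over all probe sets of Slc38a9, with these bounds, was 1.57. Slc38a6, a member of the same family for which no substrate is given here, read 636.4 in Eed KO and 298.7 in control, 2.13-fold higher, and kept the call in 5 of 10 alternatives.

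The 3 carriers of Slc36 all had ratios above 1, and 2 of them reached 2-fold. Slc36a1 (PAT1), a carrier of glycine, alanine and proline found at lysosomes and the gut surface, read 428.7 in Eed KO and 152.9 in control, 2.80-fold higher (log2 ratio 1.49, 1.18 to 1.49 over the alternatives). Slc36a4 (PAT4), a carrier of proline and tryptophan, read 207.7 in Eed KO and 35.8 in control, at least 3.39-fold higher, a ratio that a floor at the 60th percentile brought to 0.30 on the log2 scale. Slc36a2 (PAT2) read 109.1 in Eed KO and 75.2 in control (0.54). Slc36a2 and Slc36a1 are neighbours on chromosome 11 with 0 coding genes between them. Each Slc36 gene had a single probe set.

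Slc43 carriers move branched-chain and other large neutral amino acids without an ion gradient. Slc43a2 (LAT4) read 403.2 in Eed KO and 211.8 in control, 1.90-fold higher, while its other measured probe set gave 134.6 in Eed KO and 142.0 in control (log2 ratio -0.08). Its probe sets therefore did not go the same way, and their mean was 0.43. Slc43a1 (LAT3) read 273.9 in Eed KO and 308.3 in control (-0.17).

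Among the sodium-coupled Slc6 carriers, the glycine carrier was higher. Slc6a9 (GlyT1) read 786.7 in Eed KO and 233.4 in control, 3.37-fold higher (log2 ratio 1.75). Its other probe set read 331.5 in Eed KO and 98.7 in control, also 1.75, and the call held in all 10 alternatives (1.45 to 1.75). Slc6a6, the taurine carrier, read 2455.0 in Eed KO and 1957.6 in control (0.33), with -0.10 to 0.36 at its other probe sets. Slc6a15, a carrier of branched-chain amino acids and proline known from brain, read 265.7 in Eed KO and 429.1 in control (-0.69). Slc6a19, the neutral amino acid carrier of kidney and gut, read 139.0 in Eed KO and 112.6 in control (0.30, or 0.00 with equal array medians).

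Counts by family include genes measured through Eed KO alone, and can be read against 10.8% higher and 3.27% lower over all genes. In Slc1 2 of 5 measured genes were higher and 1 lower (median log2 ratio 0.71). In Slc7 2 of 9 were higher and 0 lower (0.61), in Slc38 3 of 8 were higher and 1 lower (0.49), and in Slc36 2 of 3 were higher and 0 lower (1.49). In Slc6 1 of 4 was higher and 0 lower (0.32), and the 2 genes each of Slc3 (0.54) and Slc43 (0.38) had 0 calls. Where both arrays exceeded the floor, 1 of 4 Slc1 genes was higher and 1 lower (median 0.32). For Slc7 these were 2 of 7 higher (0.61), for Slc38 2 of 7 higher and 1 lower (0.01), and for Slc36 1 of 2 higher (1.01), while Slc6 and Slc43 were as before. Among members with a ratio above 1, the nearest to 2-fold were Slc38a6 (2.13-fold) and Slc38a7 (2.22-fold) above it and Slc38a9 (1.96-fold) and Slc43a2 (1.90-fold) under it. Among those below 1 they were Slc1a3 (2.21-fold lower) and Slc7a7 (1.79-fold lower). No replicate gives the spread of these ratios. Different probe sets of a gene are the only repeated measurement, and 5418 pairs above the floor on both arrays were compared. Pairs were grouped by the mean signal of the dimmer probe set. The SD of a log2 ratio was 0.49 up to 128, 0.33 between 256 and 512 and 0.18 above 2048. Technical and isoform differences within this pair of arrays are all that this spread can hold. Of the 12 called members 7 had another measured probe set, and in all 7 every such probe set went the same way. That was partly fixed beforehand, since some of these probe sets were above the floor on 1 array only. Among them were both of Slc7a2, all but 1 of Slc1a3 and 1 of Slc1a1. A dim probe set of Slc38a2 was close to no difference, at a log2 ratio of -0.05.

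Higher calls were also more frequent among dim genes as a whole, so the members were set beside genes of like signal. At mean signals up to 256, 4 of 13 members were higher (30.8%), against 15.7% of all genes in that range. In that range 6 of the 13 members were above the floor in Eed KO only, which fixed their direction, and they gave 3 of the 4 higher calls. Over the 7 that were above it on both arrays 1 was higher (14.3%), against 15.5% of such genes, so that the share of dim members was near the background. Between 256 and 1024, 5 of 11 members were higher (45.5%), against 10.9% of all genes, and the median log2 ratio was 0.97 against 0.14. Above 1024, 1 of 9 members was higher (11.1%), against 4.16% of all genes, and 1 lower, with medians of 0.01 against -0.09. The counts in each range are small, and no test was made.

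Calls and medians depended on the scaling, for the members and for all genes. With equal array medians the median log2 ratio of all genes was -0.16 in place of 0.12, 8 of 32 members were higher and 4 lower, and 6.35% of all genes were higher and 7.53% lower. Relative to the median of all genes, the members' median was 0.44 higher as deposited and 0.49 higher under that scaling. Higher genes made up 76.7% of all calls as deposited, 64.7% after quantile normalisation, 70.0% after removal of the intensity trend, 70.4% when the hybridisation spikes set the scale, 57.6% when the poly-A spikes did and 45.8% with equal medians. Among members they made up 83.3% as deposited, 81.8% after quantile normalisation and after removal of the trend, 83.3% on the hybridisation spikes, 72.7% on the poly-A spikes and 66.7% with equal medians.

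**Figure D3:**
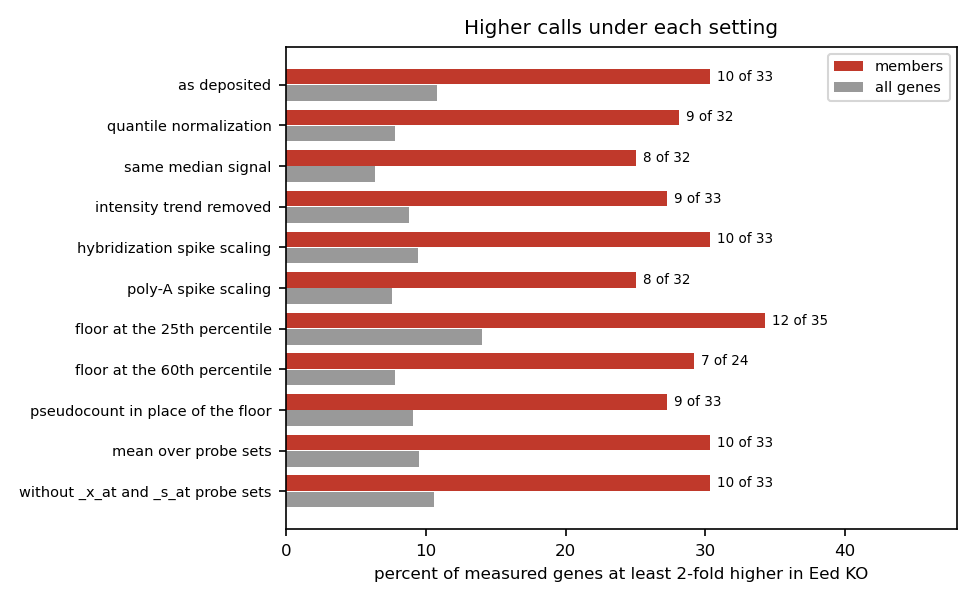
Percent of measured genes at least 2-fold higher in Eed KO under each setting, for the amino acid transporters (with counts) and for all genes. The share of members lies between 25% and 34.3%, and that of all genes between 6.35% and 14.0%.

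Solute carriers outside the members had smaller shares of higher calls, a difference that was not tested. Of 235 other measured Slc genes 30 were higher (12.8%) and 8 lower (3.40%), with a median log2 ratio of 0.23. A list of amino acid carriers outside the members (further Slc6, Slc7, Slc38, vesicular and mitochondrial carriers) had 20 measured genes. Of these 3 were higher (15%) and 1 lower (5%), with a median of 0.19. A higher one was Ctns, the lysosomal cystine exporter (434.6 in Eed KO and 155.7 in control, 2.79-fold). The others were Slc6a13 (GAT2, 196.8 in Eed KO and 17.9 in control, at least 3.21-fold) and Slc6a12 (betaine and GABA, 126.5 in Eed KO and 34.2 in control, at least 2.06-fold). Slc6a13 and Slc6a12 were above the floor in Eed KO only, which fixed their direction. Of the 15 genes above it on both arrays 1 was higher (6.67%, against 9.89% of all such genes) and 1 lower (6.67%, against 3.39%). Slc25a12, the mitochondrial aspartate-glutamate carrier, was 2.29-fold lower at 1260.8 in Eed KO and 2890.6 in control, with -0.47 and -0.26 at its other probe sets.

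Genes of the integrated stress response include regulators, enzymes of amino acid synthesis and tRNA synthetases. Of 30 measured genes 18 (60%) were at least 2-fold higher and 0 lower, with a median log2 ratio of 1.14, and the count lay between 12 and 19 over the alternatives of scaling, floor and probe set. Nupr1, a stress-induced transcriptional regulator, read 5017.1 in Eed KO and 120.3 in control (41.7-fold). Chac1, which degrades glutathione, read 4099.4 in Eed KO and 168.3 in control (24.4-fold). Pck2, the mitochondrial phosphoenolpyruvate carboxykinase, read 2849.3 in Eed KO and 347.1 in control (8.21-fold), and the transcription factor Atf3 423.9 in Eed KO and 71.7 in control (5.91-fold). Several synthesis enzymes were called, among them Asns (2.24-fold) and Psat1 (2.16-fold), while Phgdh (1.44-fold) and Cth (1.33-fold) were not. Of the tRNA synthetases Nars was called (2.19-fold), and Sars (1.69-fold), Aars (1.57-fold), Gars (1.44-fold) and Wars (1.35-fold) were not. Asns, Psat1, Phgdh, Cth and the tRNA synthetases were named after their values were seen. The list shares 0 genes with the members, but it was put together with earlier results of these arrays known and is no independent evidence of its direction.

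Genes that sense amino acids through GCN2 and mTORC1 stayed mostly within 2-fold. Of 29 measured genes 1 (3.45%) was higher and 0 lower, with a median of 0.11 near that of all genes. The higher one was Fnip1, the folliculin partner, at 2486.7 in Eed KO and 758.7 in control (3.28-fold), with log2 ratios of 1.42 and 1.47 at its other probe sets. Sesn2, a leucine sensor that is also on the stress response list, read 1502.1 in Eed KO and 807.0 in control (1.86-fold). Its other probe set gave a log2 ratio of 0.30. Eif2ak4, which encodes the kinase GCN2, read 196.0 in Eed KO and 321.6 in control (log2 ratio -0.71). The GATOR2 subunit Seh1l read 2144.5 in Eed KO and 3302.6 in control (-0.62). The 5 other measured probe sets of Seh1l ran from -1.17 to 0.29, so its sign depended on the probe set.

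**Figure D4:**
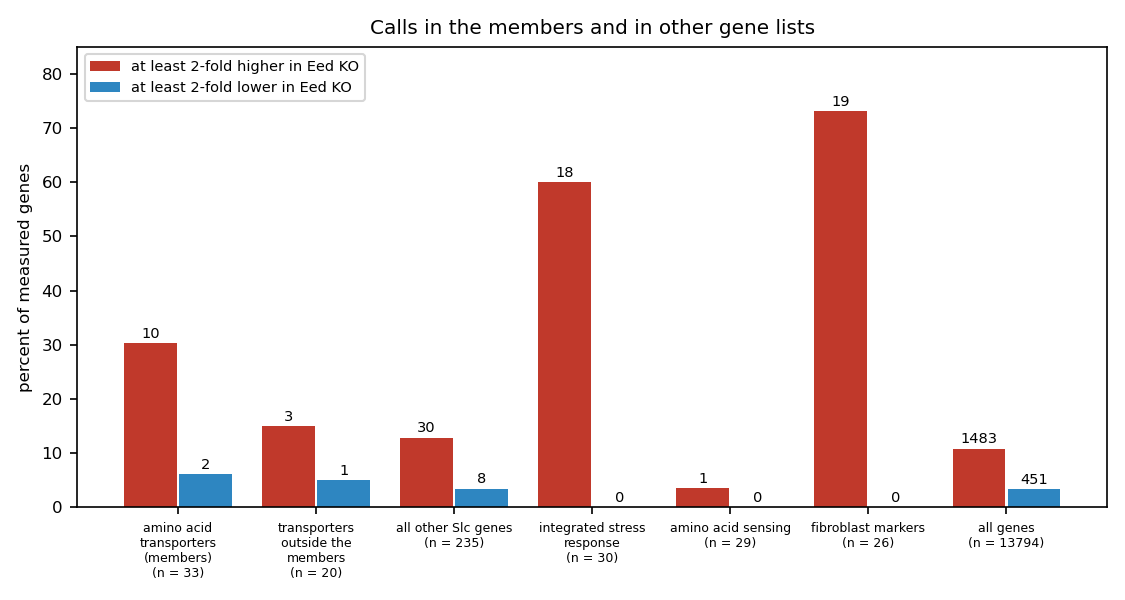
Percent of the measured genes of each list that were at least 2-fold higher (red) or lower (blue) in Eed KO than in control, with the counts above the bars. The amino acid transporters had 10 higher and 2 lower of 33, the stress response genes 18 and 0 of 30, the amino acid sensing genes 1 and 0 of 29 and the fibroblast markers 19 and 0 of 26.

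Markers of further cell types differed between the same arrays. Of 17 measured primitive endoderm markers 7 were higher and 2 lower (sums 21875 in Eed KO and 13541.5 in control). Sox17 was 4.02-fold higher, Sox7 3.87-fold (but with a log2 ratio of 0.05 at its other probe set), and Pdgfra and Gata6 2.80-fold. The lower ones, named after their values were seen, were Cubn (2.60-fold) and Lrp2 (2.21-fold). Their other probe sets gave log2 ratios of -0.70 for Cubn, and of -1.09 and 0.21 for Lrp2. Pdgfra, called, and Sparc, not called, are also on the fibroblast list, so those counts are not independent. Of 12 measured trophectoderm markers 7 were higher and 0 lower (sums 18228.4 in Eed KO and 9412.1 in control). Among the higher ones were Hand1 (4.48-fold), Esx1 (3.80-fold), Krt19 (3.56-fold) and Plac1 (2.84-fold). Ascl2 (log2 ratio -0.88) and Tfap2c (-0.47) went the other way without a call, also at their other probe sets. Cdx2 was under the floor on both arrays. Ascl2, Tfap2c and Cdx2 were named after their values were seen. The fibroblast markers that differed most were Prrx1 (6.84-fold higher), Pdgfrb (4.92-fold), Dcn (4.76-fold) and Fbln5 (4.13-fold). Among pluripotency genes Tbx3 (6.41-fold) and Klf4 (2.59-fold) were higher, Dppa4 was 2.33-fold lower and Dppa3 1.99-fold lower. The part of these cell types in the members' ratios was not tested.

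The promoters of the members differed in their number of CpG dinucleotides, and stretches rich in these are known as places where PRC2 binds. With the richest promoter taken for each gene, the median number in 300 bases was 21 for the 9 higher members with a promoter (10 to 32) and 13 for the 13 members within 2-fold (4 to 42). The 2 lower members had 41 (Slc38a2) and 3 (Slc1a3), and the 3 that were not measured had a median of 24. Over all 27025 genes with a promoter it was 8. These include genes that are not on the array or were not measured, so they are no background of like genes. Of the printed promoters, that of Slc1a1 had 32 CpG dinucleotides, that of Slc1a4 21, that of Slc7a7 9 and that of Slc7a11 4. The ranges of the higher members and of those within 2-fold overlap, and no test was made.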

How the data were processed

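Total RNA of Eed KO and control mouse ES cells was hybridised to 1 Affymetrix MOE430 2.0 array each. The deposited values are linear intensities per probe set, computed with MAS5 per the submitters' processing notes. No version is given in the sources used here, and the table has no detection calls. Of 45101 probe sets 34945 had 1 gene symbol, 932 several, 9160 none, and 64 were controls. Each gene was read from the probe set whose log2 signal, averaged over both arrays, was highest, signals under the floor of 61.3 were set to it, and log2 ratios of Eed KO over control were computed (Python 3.11.15, numpy 2.4.6, pandas 2.3.3, statsmodels 0.14.6). The procedure was tested on simulated data. Groups came from the sample titles. With 1 array per group there is no pairing, SD or p-value. Named were every member, Eed, and up to 4 genes with the largest absolute ratio of each other list. The members, lists and tests were chosen with earlier results of these data known. Alternatives were 5 scalings, 2 floors, a pseudocount of 50, 2 probe set rules and 2 other fold sizes.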

Additional observations from a re-analysis of the deposited data

How the results depend on the processing

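Limits are set by 1 array per group, by the floor for genes near it, and by unknown detection calls. Over the scalings, floors and probe set rules, 7 to 12 members were at least 2-fold higher, with a median log2 ratio of 0.33 to 0.58, and of the 12 called members 6 kept their call in every alternative that measured them. Of the single member values under these alternatives 283 moved by less than the probe set spread, 35 moved by more and 0 called ones changed sign. Restricting genes to those above the floor on both arrays, a choice made after seeing the data, gave 7 higher and 2 lower members. Members at least 2-fold lower numbered 2 as deposited, 4 with the same median and 3 with poly-A scaling. They numbered 1 with the floor at the 60th percentile, 1 with a pseudocount and 0 when a gene's probe sets were averaged. At 1.5-fold 16 of 33 members were higher (48.5%, against 23.3% of all genes) and 5 lower (against 10.2% of all genes). At 3-fold 4 were higher (12.1%, against 3.53%) and 0 lower (against 0.739%). These counts differ by construction of the threshold. Of all genes, 873 were higher and 1034 lower with the same median, and 766 were lower with poly-A scaling. With the floor at the 25th percentile 2244 were higher and 684 lower, and at the 60th 806 were higher. At 1.5-fold 3210 were higher and 1413 lower, and at 3-fold 487 were higher and 102 lower. Except for the fold sizes and floors, which change how many genes can be called, the cause was not tested.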
